A study of Sus scrofa with 31 samples.

Results

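Microglia sorted from the hippocampus were compared with whole hippocampal tissue, to find which genes are more highly expressed in the isolated cells than in the tissue they come from and which are lower. The comparison uses the 12 samples labelled as hippocampal, 8 of microglia and 4 of tissue, out of 31 samples in the series, and 4 pigs (tag numbers 12821, 12829, 12847 and 12872) gave both kinds of sample. Of 31907 genes in the count table, the 10526 with over 10 CPM (counts scaled to the size of the library) in every sample of at least 1 of the 2 groups were tested. Of these, 1405 met that level only in the microglia, 3127 only in the tissue and 5994 in both.

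The pigs were commercial cross-bred male piglets in the fourth week of life, each from a separate litter, and had been anaesthetised for a brain imaging study. They were born into standard or freer farrowing pens, and the labels do not give the pen for each sample, so housing was not analysed here. Microglia were freed from a piece of hippocampus by homogenisation on ice and a Percoll gradient and sorted as CD11b high, CD45 negative or low cells, and their RNA was bound to magnetic beads. Tissue RNA came from an adjacent piece that was kept in RNAlater and extracted on columns, so the kind of sample cannot be told apart from its extraction method or the amount of RNA that went into the library. Each tag number is a separate animal, and the p-values below rest on the spread between these animals.

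Microglia are the resident macrophages of the brain parenchyma. They enter the brain in early development, renew locally under signals such as those of the CSF1 receptor, and survey their surroundings with motile processes that carry receptors for nucleotides, chemokines, complement, antibodies and lipids. In the hippocampus they lie among pyramidal and granule neurons, interneurons, astrocytes, oligodendrocytes and vessels, and clear debris and synaptic material. Tissue RNA holds all of these cells, microglia included, and in such bulk samples fewer cells of a type and less RNA per cell cannot be told apart.

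Between 23104791 and 36503520 reads were counted on genes in the microglia samples and between 36656624 and 40499293 in the tissue samples. At these depths 3 counts, the floor used here, correspond to 0.0741 to 0.130 CPM, which covers counting error only. The median Spearman correlation of log2 CPM across tested genes was 0.962 between pairs of microglia samples, 0.971 between pairs of tissue samples and 0.204 between a microglia and a tissue sample. Along the first principal component, which held 88.8% of the variance, the microglia sample of pig 12781 lay nearest to the tissue, and it also had the highest level of several neuronal genes described below. Without that sample the counts of genes called higher and lower were 1282 and 2487, against 1281 and 2409 with it.

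A gene was called higher or lower in microglia at a Benjamini-Hochberg adjusted p under 0.01 from the quasi-likelihood test of edgeR and a fold change over 4. By this rule 1281 genes were higher in hippocampal microglia, 12.2% of those tested, and 2409 were lower, 22.9%. At the adjusted p alone, 3734 genes (35.5%) were higher and 4142 (39.4%) lower. For 3226 genes (30.6%), the 95% interval of the difference lay within a 2-fold change in either direction. The 8 microglia samples lay wholly above the 4 tissue samples for 1280 of the 1281 genes called higher and wholly below them for 2406 of the 2409 called lower. Over all tested genes 33.0% and 39.6% were separated in these directions. The calls were made on these same samples, so the separation of called genes largely follows from the call and adds no support. The same holds wherever called genes are said below to be apart between the groups.

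The sizes of the differences were unequal in the 2 directions. The median log2 fold change (microglia over tissue) was 3.22 for the genes called higher and -5.58 for those called lower, and -0.08 over all tested genes. Differences of over 64-fold were fitted for 2 genes that were higher and 1025 that were lower. Genes called higher took 28.6% to 32.4% of all counts in the microglia and 3.17% to 3.53% in the tissue, whereas genes called lower took 3.85% to 5.31% in the microglia and 38.26% to 38.70% in the tissue. The genes called lower also varied more between microglia samples, with a median SD of log2 CPM of 1.46, against 0.27 for the genes called higher.

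**Figure D1:**
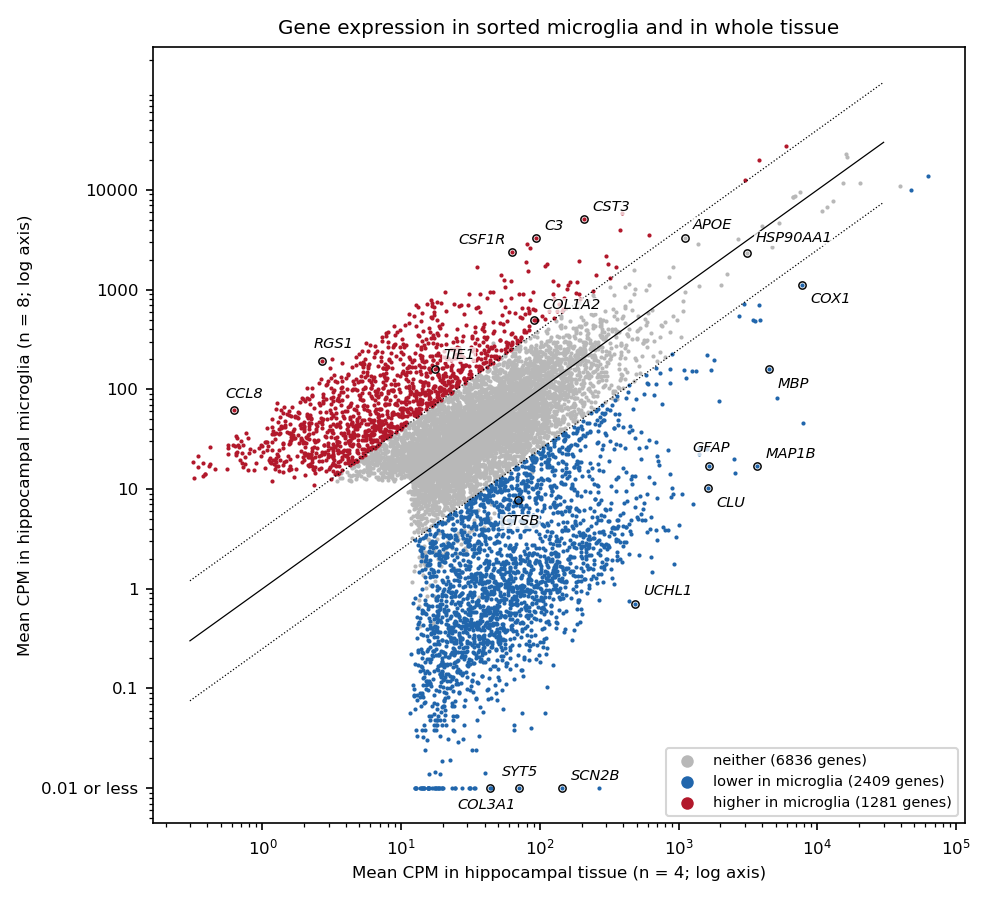
Mean CPM of each of the 10526 tested genes in hippocampal tissue (n = 4, horizontal) and hippocampal microglia (n = 8, vertical), both on log axes, with genes called higher in red, genes called lower in blue and the others in grey; the solid line marks equal levels, the dotted lines a 4-fold difference, and genes at 0.01 CPM or less in microglia are drawn at 0.01. The blue cloud reaches much farther from the line of equal levels than the red cloud, with genes such as SCN2B and SYT5 at 0 in every microglia sample.

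The genes of the 2 surface proteins used for the sort were measured as a check of the labels and are not independent findings. ITGAM, which encodes CD11b (chromosome 3, 17216719 to 17272134), was at 593 to 862 CPM in microglia (median 726) and at 26.1, 20.9, 25.9 and 22.7 CPM in the tissue of pigs 12821, 12829, 12847 and 12872, in that order, as in all lists of tissue values below. PTPRC, which encodes CD45 (chromosome 10, 21482984 to 21601627), was at 531 to 672 CPM in microglia and 15.4 to 19.2 CPM in tissue. Both genes were far above tissue in every microglia sample, with log2 fold changes of 4.92 and 5.12.

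The gene lists used below are of known markers and pathways, and a gene can stand in more than 1 list. A member with over 10 CPM in every sample of only 1 group was tested through that group. The counts of members called therefore follow in part from the filter. Each is to be set against the 12.2% of all tested genes called higher and the 22.9% called lower. Of 25 tested markers of microglia, 24 were called higher, with a median log2 fold change of 4.92. Their summed level was 14079 to 17263 CPM in the microglia and 569 to 728 CPM in the tissue, and for the median marker the tissue level was 3.303% of that in microglia. CSF1R, the receptor for colony stimulating factor 1 (chromosome 2, 151102138 to 151130311), was at 1999 to 2682 CPM in microglia (median 2374) and at 72.2, 63.04, 53.4 and 63.9 CPM in tissue (log2 fold change 5.24 ± 0.13 SE, edgeR adjusted p = 8.91e-12). The lowest microglia sample was thus far above the highest tissue sample, as it also was for C1QB, a subunit of the complement starter C1q, at 1107 to 2294 against 32.6 to 37.5 CPM. TREM2, a lipid-sensing receptor of microglia, had a mean of 377 ± 76.6 CPM in microglia (SD, n = 8) and 9.39 ± 1.84 CPM in tissue (SD, n = 4), with a log2 fold change of 5.33.

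Markers of macrophages from the brain's borders or the blood, of lymphocytes and of granulocytes were mostly too low to test. CD163 and MRC1, scavenger and mannose receptors of border macrophages, were at means of 2.18 ± 2.13 and 1.02 ± 1.29 CPM in microglia and 2.05 ± 0.629 and 2.51 ± 0.903 CPM in tissue, and neither passed the filter. Of the 4 tested members of that list, MS4A7 (5.61), CD14 (5.24) and STAB1 (2.96) were called higher by these log2 fold changes and VCAN, a matrix proteoglycan that glial precursors also make, was called lower (-3.06). CD2, an adhesion receptor known from T cells, was at 24.3 to 67.8 CPM in microglia and 0.916 to 1.504 CPM in tissue, while the T cell receptor gene CD3E had a mean of 0.0291 ± 0.0557 CPM in microglia. CSF3R, the receptor for granulocyte colony stimulating factor, was at 13.3 to 37.99 CPM in microglia and 0.191 to 0.75 CPM in tissue. Of 16 genes with a symbol listed for lymphocytes and granulocytes, 3 passed the filter, and the list's summed level was 86.7 to 168 CPM in microglia and 31.3 to 50.96 CPM in tissue.

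The gene with the largest fold change in favour of microglia was CCL8, a chemokine that attracts monocytes (chromosome 12, 40740468 to 40741970). It was at 46.2 to 88.6 CPM in microglia (median 61.9) and at 0.746, 0.848, 0.544 and 0.361 CPM in tissue (log2 fold change 6.61 ± 0.30 SE, edgeR adjusted p = 1.27e-09). RGS1, a regulator that shortens G protein signalling (chromosome 10, 1147439 to 1151733), followed with 112 to 410.3 CPM in microglia (median 148) and 2.58, 2.08, 2.03 and 4.03 CPM in tissue (log2 fold change 6.16 ± 0.54 SE, edgeR adjusted p = 5.71e-07). Microglia samples wholly above the tissue samples were a condition for naming both genes here. Within each of the 4 pigs that gave both samples the difference of log2 CPM was 6.07 to 7.26 for CCL8 and 5.62 to 6.65 for RGS1.

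Of the other 8 genes with a symbol and the largest fold changes, several encode receptors or effectors of innate immunity. ADORA3, the adenosine A3 receptor, was at 221 to 339 CPM in microglia and 4.697 to 6.37 CPM in tissue (log2 fold change 5.68 ± 0.16 SE, edgeR adjusted p = 2.6e-11), but overlaps TMIGD3 on the same strand, so that reads of the 2 genes cannot be told apart. LTB4R2, a leukotriene B4 receptor, was at 43.4 to 82.4 CPM in microglia and at 1.69, 0.219, 1.403 and 1.72 CPM in tissue. MPEG1, the pore-forming protein perforin-2 of macrophages, was at 504 to 993 CPM against 8.94 to 18.8 CPM. The log2 fold changes of these 3 genes were 5.68, 5.65 and 5.79. Groups without overlap were a condition for naming them and are not a separate result. MCOLN2, a cation channel of endosomes and lysosomes, was at 10.7 to 32.2 CPM in microglia and 0.344, 0.109, 0.172 and 0.639 CPM in tissue, and its log2 fold change of 5.87 became 6.47 without the tissue of pig 12872. The signal regulatory protein gene SIRPB2 (5.74), TMEM156 (5.83), the C1q subunit gene C1QA (5.65) and the interleukin-21 receptor gene IL21R (5.73) completed the 10 by these log2 fold changes. IL21R was the least even of them, at 12.2 to 72.5 CPM in microglia, and limma-voom did not call it (log2 fold change 5.65, adjusted p = 0.0198).

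Among genes with a symbol called higher, the most abundant by CPM in microglia was CST3, the secreted protease inhibitor cystatin C, at 3649.6 to 6784 CPM in microglia (median 4934) and 201, 223, 151 and 256 CPM in tissue (log2 fold change 4.62 ± 0.24 SE, edgeR adjusted p = 3.54e-09). Every microglia sample was far above the highest tissue sample for this gene. The complement component C3 was at 2803 to 4045 CPM in microglia and 69.1 to 117 CPM in tissue, and CALCR, the calcitonin receptor, at 1928 to 3212 and 70.3 to 105 CPM. Per kilobase of RefSeq exon, the mean levels in microglia were 10833 CPM for CST3, 1451 for C1QB, 623 for C3, 591 for CSF1R, 374 for the ubiquitin ligase gene RNF128, 337 for CALCR, 208 for the arrestin gene ARRB1, 179.9 for the membrane skeleton gene EPB41L2 and 105 for the deubiquitinase gene USP9X. On that scale CST3 stood far above the others, and EPB41L2 and USP9X came last. SNORD17, a small nucleolar RNA with no position matched here, was also in this set, at 1081 to 2596 CPM in microglia and 90.9 to 129.8 CPM in tissue. USP9X was close to the fold threshold (log2 fold change 2.05 ± 0.08 SE, edgeR adjusted p = 4.58e-10), and with the pig as a block its log2 fold change was 1.96, under a 4-fold difference.

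**Figure D2:**
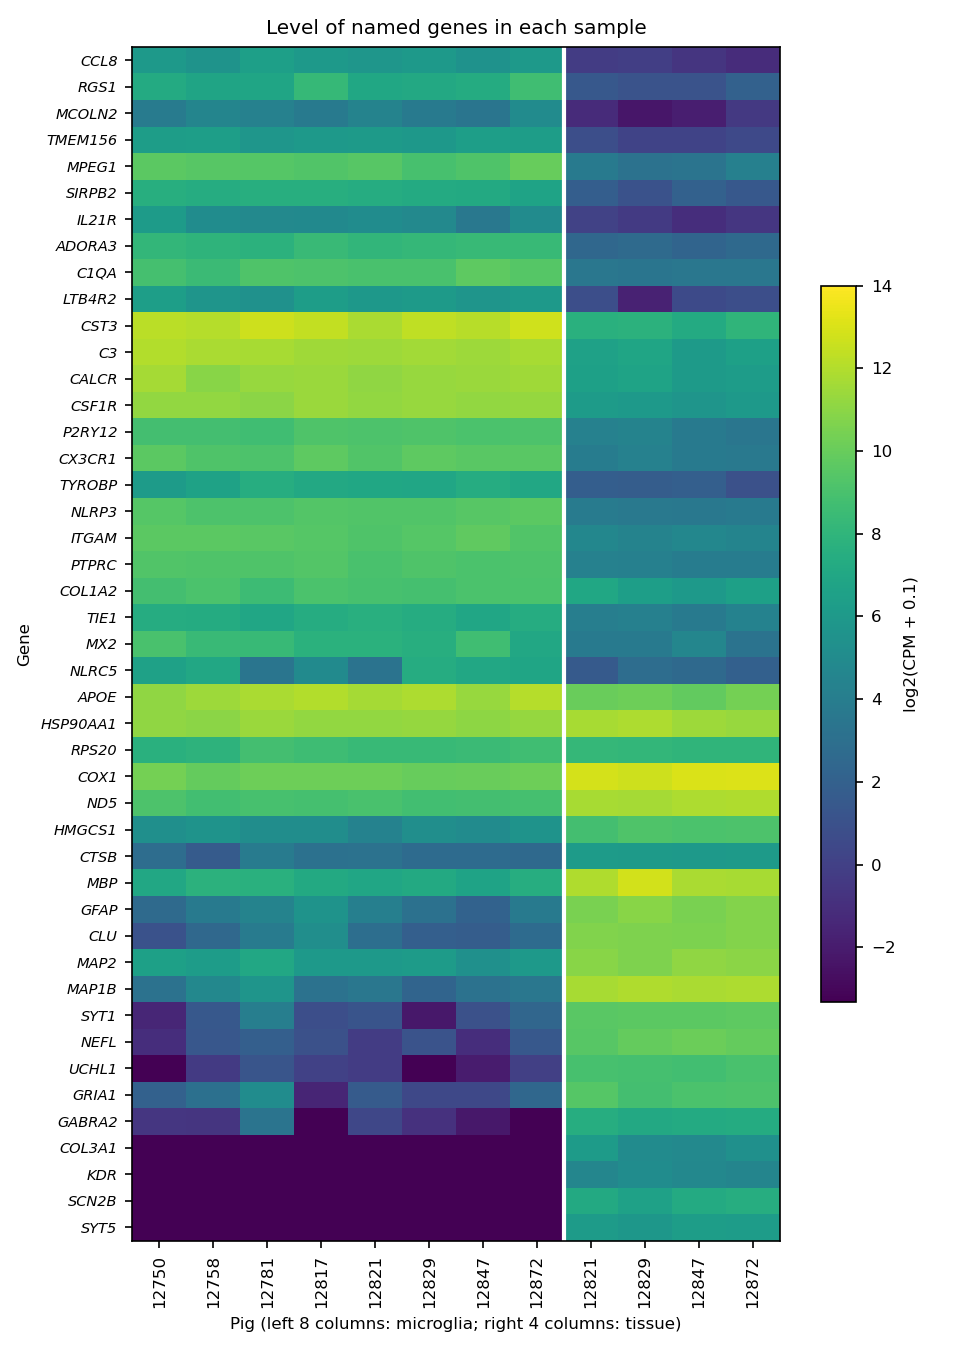
Level of named genes (rows) in the 8 microglia samples (left) and the 4 tissue samples (right), as log2 of CPM plus 0.1, with the pig's tag number under each column. From CCL8 to NLRC5 the microglia columns are brighter than the tissue columns, APOE, HSP90AA1 and RPS20 differ by less than 4-fold, and from COX1 down the tissue columns are brighter, with COL3A1, KDR, SCN2B and SYT5 at 0 in all microglia columns.

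The bases before the annotated start are shown for the genes with the largest fold change in each direction and for the sort antigens, since these genes carry the comparison. They were read from the Sscrofa11.1 genome, 250 bases upstream of the start of each RefSeq gene, and were CCL8 at chr12:40741971-40742220, minus strand, RGS1 at chr10:1151734-1151983, minus strand, SCN2B at chr9:45502579-45502828, minus strand, SYT5 at chr6:59389015-59389264, minus strand, ITGAM at chr3:17272135-17272384, minus strand and PTPRC at chr10:21482734-21482983, plus strand. Capitals mark every match, on either strand, to GAGGAAGT, a site of the kind bound by PU.1, to the ETS-IRF composite motif or to the TATA box TATAAA.
CCL8: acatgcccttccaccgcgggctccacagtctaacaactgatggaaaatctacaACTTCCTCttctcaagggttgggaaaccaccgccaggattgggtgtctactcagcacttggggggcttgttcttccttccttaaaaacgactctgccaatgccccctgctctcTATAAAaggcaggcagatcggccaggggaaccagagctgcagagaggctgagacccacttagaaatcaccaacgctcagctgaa
RGS1: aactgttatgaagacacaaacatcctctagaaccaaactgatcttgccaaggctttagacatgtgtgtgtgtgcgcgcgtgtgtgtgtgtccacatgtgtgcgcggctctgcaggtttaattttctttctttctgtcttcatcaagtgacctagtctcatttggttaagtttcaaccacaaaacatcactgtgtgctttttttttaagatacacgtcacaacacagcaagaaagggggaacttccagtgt
SCN2B: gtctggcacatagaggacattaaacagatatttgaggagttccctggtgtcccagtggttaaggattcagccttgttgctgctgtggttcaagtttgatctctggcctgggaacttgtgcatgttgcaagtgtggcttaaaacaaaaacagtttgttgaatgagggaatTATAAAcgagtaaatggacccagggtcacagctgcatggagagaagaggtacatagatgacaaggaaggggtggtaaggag
SYT5: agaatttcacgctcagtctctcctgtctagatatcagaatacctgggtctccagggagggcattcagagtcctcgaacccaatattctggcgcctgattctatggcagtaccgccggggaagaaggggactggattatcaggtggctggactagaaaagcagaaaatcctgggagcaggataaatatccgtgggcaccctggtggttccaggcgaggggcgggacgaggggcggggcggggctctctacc
ITGAM: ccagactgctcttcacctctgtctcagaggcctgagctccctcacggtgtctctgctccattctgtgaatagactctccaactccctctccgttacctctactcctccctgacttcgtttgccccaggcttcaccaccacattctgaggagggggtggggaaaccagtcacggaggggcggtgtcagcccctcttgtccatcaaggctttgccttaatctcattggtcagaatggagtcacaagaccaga
PTPRC: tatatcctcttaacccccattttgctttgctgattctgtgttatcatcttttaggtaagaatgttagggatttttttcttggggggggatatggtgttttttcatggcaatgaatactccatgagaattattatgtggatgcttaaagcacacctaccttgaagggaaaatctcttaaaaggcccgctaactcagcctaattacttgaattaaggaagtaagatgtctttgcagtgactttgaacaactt
In these windows CCL8 held 1 GAGGAAGT match, which began 197 bases before the start, and 1 TATAAA match, which began 84 bases before it. SCN2B held 1 TATAAA match, and the other 4 windows held none of the motifs. Of 19498 promoters of the same length in the RefSeq annotation, 1.64% held GAGGAAGT, 2.27% held the ETS-IRF composite motif and 9.76% held TATAAA. The shares for GAGGAAGT were 4.14% of 773 promoters of genes called higher, 1.41% of 1985 of genes called lower and 1.57% of 5550 of the other tested genes. For the ETS-IRF composite motif they were 3.88%, 2.12% and 2.07%, and for TATAAA 7.37%, 6.398% and 5.86%, in the same order. These shares are descriptions of the letters in the windows and were not tested, and the median GC content of the windows was 59.2% for genes called higher and 63.6% for genes called lower.

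Receptors that signal through tyrosine-based motifs, and the enzymes below them, were higher in microglia almost throughout. Of 21 tested genes of TREM2 and immunoreceptor signalling, 19 were called higher and 0 lower, with a median log2 fold change of 4.78, against 12.2% of all tested genes called higher. TYROBP, the adaptor of TREM2, was at 73.01 to 181 CPM in microglia (median 131) and 3.499, 3.36, 3.72 and 1.83 CPM in tissue (log2 fold change 5.40 ± 0.32 SE, edgeR adjusted p = 1.24e-08). The phosphatase gene INPP5D (4.71) and the kinase gene PIK3CG (5.02) were called higher by these log2 fold changes, and the lowest microglia sample was above the highest tissue sample for each. All 5 tested Fc receptor genes were called higher. FCGR1A, the high-affinity receptor for IgG, was at 223 to 284 CPM in microglia and 3.17 to 8.997 CPM in tissue, and FCGRT, the neonatal Fc receptor, at 124 to 208 and 14.7 to 18.9 CPM.

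Of 15 tested complement genes, 11 were called higher and 2 lower. C1QA was at 359 to 835 CPM in microglia and at 11.7, 10.4, 11.7 and 11.6 CPM in tissue, so that the tissue samples differed little among themselves. The 2 genes called lower were CLU, the extracellular chaperone clusterin, which is also listed here as an astrocyte gene, and C4A, the complement component C4. CLU was at 1.98 to 38.1 CPM in microglia (median 6.06) and 1649, 1590.4, 1539 and 1738 CPM in tissue (log2 fold change -7.32 ± 0.74 SE, edgeR adjusted p = 2.28e-06). C4A was at 0 to 5.59 CPM in microglia and 34.8, 41.3, 31.4 and 21.2 CPM in tissue (log2 fold change -4.58 ± 1.08 SE, edgeR adjusted p = 0.00194). For both genes the highest microglia value came from pig 12817, and without that sample the log2 fold changes were -8.04 for CLU and -5.47 for C4A.

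Toll-like receptors recognise microbial and cellular debris, and most signal through MYD88 to NF-kappaB. The list used here also holds the adaptor gene TICAM1 and genes of NOD-like receptors and the inflammasome. Of 24 tested genes of this list, 18 were called higher and 1 lower, with a median log2 fold change of 4.19. NLRP3, the inflammasome sensor, was at 578 to 794 CPM in microglia (median 653) and 14.6, 12.6, 12.3 and 13.6 CPM in tissue (log2 fold change 5.64 ± 0.12 SE, edgeR adjusted p = 4.58e-12). TLR9, which senses unmethylated DNA and overlaps TWF2 on the same strand, was at 190.2 to 265 CPM in microglia and 4.01 to 5.69 CPM in tissue, and UNC93B1, the chaperone of the endosomal receptors, at 288 to 429 and 7.83 to 10.5 CPM. The groups did not overlap for any of these 3 genes, which largely follows from their being called. The gene called lower was TLR5, the flagellin receptor, which had a median of 0 and a highest value of 2.75 CPM in microglia and was at 18.4, 16.8, 17.4 and 16.97 CPM in tissue (log2 fold change -5.35 ± 1.53 SE, edgeR adjusted p = 0.00598). Its call was lost in DESeq2 (adjusted p = 0.0108) and when the microglia sample of pig 12758 or 12872 or any tissue sample was left out, with adjusted p from 0.0103 to 0.0157 in edgeR. Without the microglia sample of pig 12781, which held the highest value, its log2 fold change was -7.54.

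Chemokine genes were found on both sides. Of 7 tested chemokines and chemokine receptors, 5 were called higher and 2 lower, where 12.2% and 22.9% of all tested genes were. CX3CR1, the receptor for the neuronal ligand fractalkine, was at 575 to 824 CPM in microglia (median 767) and 15.5, 19.1, 13.4 and 12.998 CPM in tissue (log2 fold change 5.57 ± 0.18 SE, edgeR adjusted p = 8.05e-11). CXCL14, at 2.28 to 9.75 CPM in microglia, was at 60.1, 55.1, 84.4 and 97.6 CPM in tissue (log2 fold change -3.60 ± 0.31 SE, edgeR adjusted p = 4.06e-07). CXCL12, the ligand of CXCR4, was at 0 to 3.01 CPM in microglia and 22.6 to 28.9 CPM in tissue (log2 fold change -4.22 ± 1.01 SE, edgeR adjusted p = 0.00189), and with the pig as a block its adjusted p was 0.0234.

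Receptors for nucleotides and adenosine, some of which guide microglial processes to sites of damage, were higher, lower or little different by member. Of 11 tested, 5 were called higher and 1 lower, where 12.2% and 22.9% of all tested genes were. P2RY12, the ADP receptor of process movement, was at 408 to 595 CPM in microglia (median 564) and 19.6, 20.9, 13.98 and 11.3 CPM in tissue (log2 fold change 5.00 ± 0.22 SE, edgeR adjusted p = 8.9e-10), and lies within MED12L on the opposite strand. ENTPD1, the ATP-degrading enzyme CD39, was at 204 to 232 CPM in microglia and 13.4 to 18.6 CPM in tissue (log2 fold change 3.73 ± 0.10 SE, edgeR adjusted p = 1.59e-11). ADORA1, the adenosine A1 receptor of neurons, had a median of 0.0276 CPM in microglia, with 4.61 CPM in pig 12781, and was at 64.6, 69.3, 77.8 and 67.1 CPM in tissue (log2 fold change -6.30 ± 1.28 SE, edgeR adjusted p = 0.000658). Without pig 12781 its log2 fold change was -7.62, and DESeq2 did not call it on all samples (adjusted p = 0.0271).

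Of 24 tested cytokines, growth factors and their receptors, 16 were called higher and 5 lower, where 12.2% and 22.9% of all tested genes were. TGFBR2, the type II receptor for transforming growth factor beta, was at 361 to 469 CPM in microglia (median 409) and 22.3, 18.7, 15.6 and 19.6 CPM in tissue (log2 fold change 4.42 ± 0.12 SE, edgeR adjusted p = 1.75e-11). The 5 genes called lower, a share near the 22.9% of all tested genes, were ligands and a coreceptor. IL34, a further ligand of CSF1R known from neurons, was at 1.98 to 11.02 CPM in microglia (median 7.19) and 45.6, 51.7, 49.2 and 52.99 CPM in tissue (log2 fold change -2.89 ± 0.32 SE, edgeR adjusted p = 3.59e-06). For IL34 every tissue sample was above every microglia sample, and for its receptor CSF1R the reverse held. The fibroblast growth factor gene FGF2 (-4.44), the platelet-derived growth factor gene PDGFA (-5.28), the transforming growth factor gene TGFB2 (-2.32) and the coreceptor gene TGFBR3 (-7.02) were the others, by these log2 fold changes. Without the microglia sample of pig 12781 the value for PDGFA was -6.01, and without that of pig 12758 the value for TGFBR3 was -8.51. Tested against the 4-fold threshold itself (glmTreat in edgeR), TGFB2 and PDGFA were not called (adjusted p = 0.224 and 0.0137). IL6ST, the shared receptor subunit gp130, was above tissue by less than 4-fold, at 181 to 667 CPM in microglia and 131 to 152 CPM in tissue (log2 fold change 1.64 ± 0.42 SE, edgeR adjusted p = 0.00308).

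Antigen presentation genes were higher in microglia, with 9 of 12 tested called higher and 0 lower. CD86, a costimulatory ligand of T cells, was at 63.2 to 115 CPM in microglia and 2.72 to 4.101 CPM in tissue (log2 fold change 4.90 ± 0.20 SE, edgeR adjusted p = 5.3e-10), and CD80 at 102 to 205 against 5.52 to 7.82 CPM. CD74, the invariant chain of MHC class II, varied more, at 176 to 657 CPM in microglia (median 351) and 83.2, 77.3, 80.7 and 65.05 CPM in tissue (log2 fold change 2.28 ± 0.36 SE, edgeR adjusted p = 8.92e-05). Even its lowest microglia sample, from pig 12758, was above all tissue samples, but CD74 was not called in the test against the 4-fold threshold (edgeR adjusted p = 0.218). Interferon response genes were called higher for 9 of 16 tested and lower for 0, with a median log2 fold change of 2.28. MX2, an antiviral GTPase, was at 135 to 516 CPM in microglia (median 271) and 14.3, 13.9, 24.4 and 9.44 CPM in tissue (log2 fold change 4.24 ± 0.45 SE, edgeR adjusted p = 3.65e-06). The interferon list summed to between 912 CPM in the microglia of pig 12872 and 2357 CPM in those of pig 12750, a wider range than its 301 to 417 CPM in tissue.

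Transcription factors of myeloid cells and of neural cells lay on opposite sides. Of 21 tested factors of myeloid identity, 17 were called higher and 2 lower, while of 27 tested factors of neurons and macroglia 25 were called lower and 0 higher, with a median log2 fold change of -7.07. IRF8, which sets macrophage fate together with PU.1, was at 667 to 1110.3 CPM in microglia (median 959) and 79.2, 72.4, 64.04 and 66.3 CPM in tissue (log2 fold change 3.69 ± 0.16 SE, edgeR adjusted p = 9.31e-10). TFEC, a factor of the MiT family in macrophages, had the largest fold change of the list, at 28.4 to 68.6 CPM in microglia and 0.82 to 1.75 CPM in tissue (log2 fold change 5.19 ± 0.33 SE, edgeR adjusted p = 2.72e-08). MEF2A and MEF2C, which neurons also use, were higher by smaller amounts (2.67 and 2.36 log2), and MEF2C was not called in the test against the 4-fold threshold (edgeR adjusted p = 0.0768). The members called lower were ETS1 (-4.63), a factor of lymphoid and endothelial cells, and SALL3 (-4.62), a relative of the microglial factor SALL1, and without the microglia sample of pig 12829 the value for ETS1 was -5.24. SOX10, the factor of the oligodendrocyte lineage, was at 0.551 to 5.301 CPM in microglia and 151, 282, 112 and 135 CPM in tissue (log2 fold change -6.36 ± 0.66 SE, edgeR adjusted p = 2.86e-06). NEUROD1, a factor of granule neurons, was listed at 0 in 7 microglia samples and at 0.305 CPM in that of pig 12781, against 12.9, 11.5, 14.5 and 17.6 CPM in tissue, and with the pig as a block its adjusted p was 0.0236.

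Of 11 tested integrin genes 3 were called higher and 4 lower, few members to set against the 12.2% and 22.9% of all tested genes. ITGB2, the beta subunit that pairs with CD11b, was at 629 to 736 CPM in microglia and 14.5 to 18.5 CPM in tissue (log2 fold change 5.37 ± 0.09 SE, edgeR adjusted p = 1.09e-12). ITGA7, a laminin receptor subunit known from muscle, had at most 0.654 CPM in microglia and 26.2 to 41.3 CPM in tissue (log2 fold change -7.48 ± 1.02 SE, edgeR adjusted p = 2.58e-05), a log2 value that was -8.16 without the microglia of pig 12821.

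**Figure D3:**
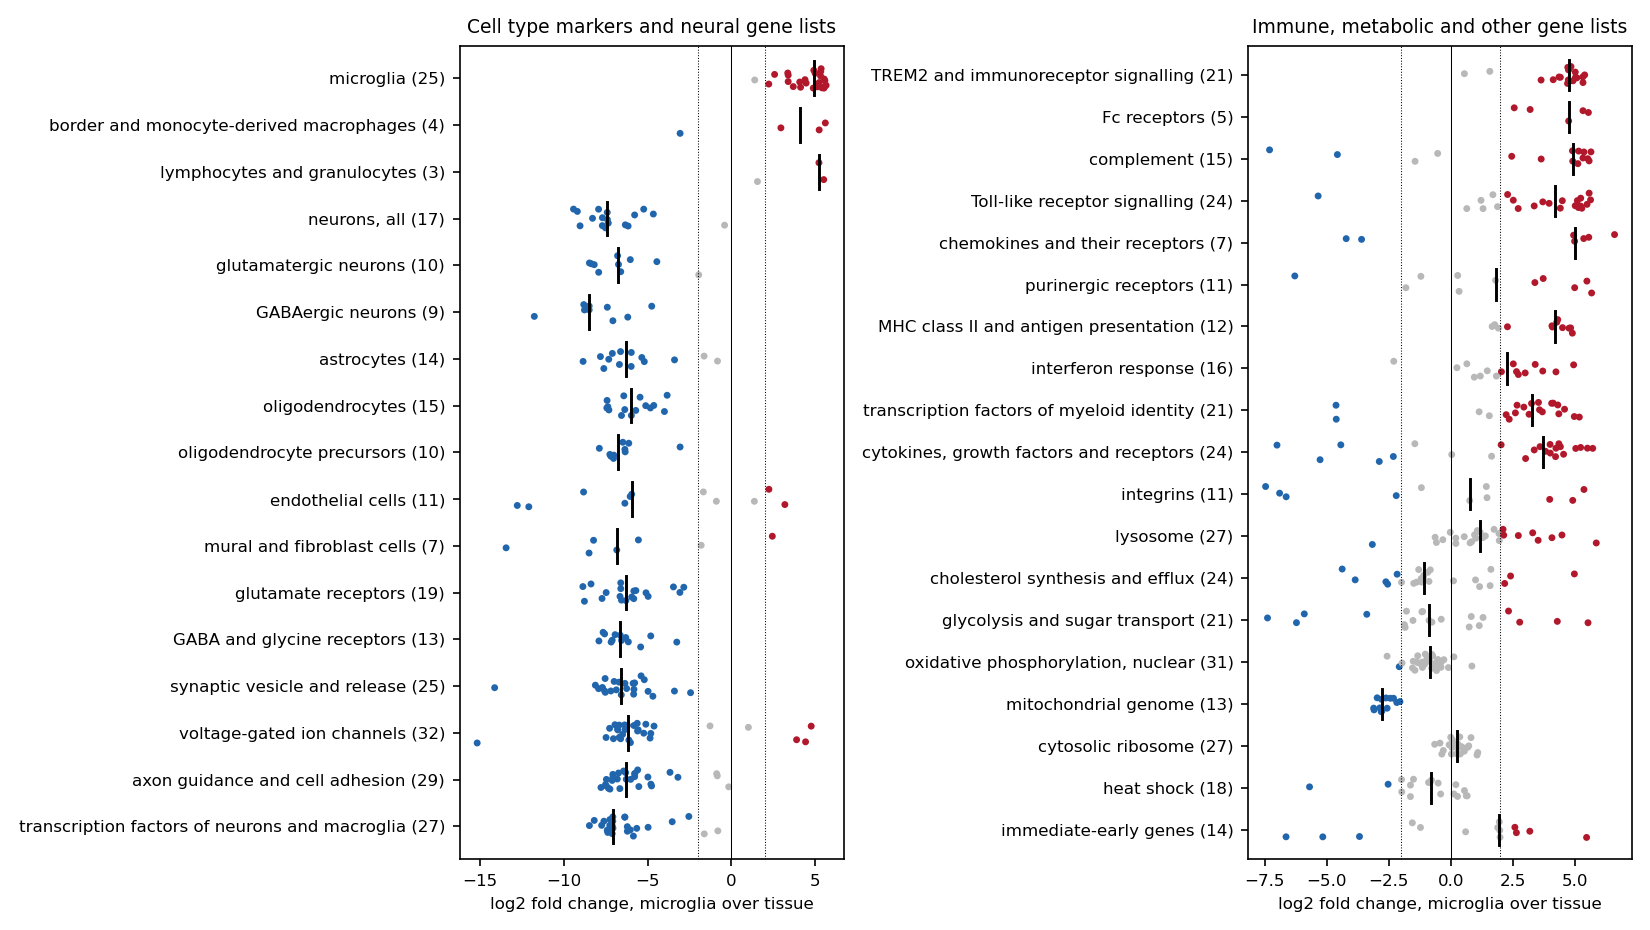
log2 fold change of microglia over tissue (horizontal) for each tested member of 36 gene lists (rows, with the number of tested members), with members called higher in red, called lower in blue and not called in grey; black bars mark the median of each list and dotted lines a 4-fold difference. Immune lists lie at the right with isolated blue members, neural lists lie at the left, and the ribosome list lies around 0. The heat shock and nuclear oxidative phosphorylation lists lie somewhat to the left of 0, with medians of -0.81 and -0.83. For members at 0 in all microglia samples, the points below -11, the fitted value depends on the prior count.

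The 10 genes with a symbol and the largest fitted differences in favour of tissue were listed at 0 counts in all 8 microglia samples, and their folds are therefore given as lower bounds against 3 counts, averaged over the 8 microglia libraries. SCN2B, a beta subunit of the sodium channel (chromosome 9, 45484994 to 45502578), was at 148, 97.3, 156 and 178 CPM in tissue, at least 1357-fold higher than the floor in microglia. SYT5, a calcium sensor of vesicle release (chromosome 6, 59381649 to 59389014), was at 72.5, 56.3, 78.2 and 74.4 CPM in tissue, at least 658-fold higher. No read of either gene was counted in any microglia library. The type III collagen gene COL3A1 (at least 410.0-fold), the VEGF receptor gene KDR (at least 258-fold) and the endothelial adhesion receptor gene ADGRF5 (at least 291-fold) belong to vessels and their walls. The outer dynein arm docking gene ODAD2 (at least 316-fold), the calcineurin regulator gene RCAN2 (at least 289.9-fold), AIFM3 (at least 313-fold), WDR17 (at least 228-fold) and the SRC family kinase gene YES1 (at least 188-fold) were the others, with YES1 at 17.6 to 22.6 CPM in the tissue samples. Among the 2409 genes called lower, 37 were at 0 in all 8 microglia samples and 50 had at most 3 counts in each. With the pig as a block, YES1 was not called (adjusted p = 0.0109).

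Myelin genes were among the most abundant genes called lower. MBP, myelin basic protein, was at 135, 229, 201, 145, 123, 146, 106 and 178 CPM in the microglia of pigs 12750, 12758, 12781, 12817, 12821, 12829, 12847 and 12872 and at 3858, 7204, 3534 and 3393 CPM in the tissue of pigs 12821, 12829, 12847 and 12872 (log2 fold change -4.83 ± 0.25 SE, edgeR adjusted p = 3.79e-09). The groups did not overlap, and the tissue of pig 12829 was high. All 15 tested oligodendrocyte genes were called lower, with a median log2 fold change of -5.97, against 22.9% of all tested genes. All 10 tested genes of oligodendrocyte precursors were called lower as well. PDGFRA, the receptor that defines these precursors, was at 0 to 1.87 CPM in microglia and 108 to 124 CPM in tissue (log2 fold change -7.88 ± 0.89 SE, edgeR adjusted p = 5.58e-06), a log2 value that was -8.74 without the microglia of pig 12817.

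Astrocyte genes were called lower for 12 of 14 tested, with a median log2 fold change of -6.29. GFAP, the intermediate filament of astrocytes, was at 4.28 to 48.6 CPM in microglia (median 13.96) and 1445, 1966, 1457 and 1744 CPM in tissue (log2 fold change -6.61 ± 0.57 SE, edgeR adjusted p = 5.35e-07). SPARCL1, a secreted matrix protein, was at 16.8 to 40.02 CPM in microglia and 1379.9 to 1734 CPM in tissue. MLC1, a membrane protein of astrocyte endfeet, had at most 0.803 CPM in microglia and 60.8 to 87.6 CPM in tissue (log2 fold change -8.85 ± 0.93 SE, edgeR adjusted p = 2.98e-06), a log2 value that was -10.30 without the microglia of pig 12821. The list as a whole summed in microglia to 4.67% of its level in tissue, although the median gene was at 1.303%. SLC1A3, a glutamate transporter, held much of that sum, at 238 ± 78.6 CPM in microglia (SD, n = 8) and 736 ± 136 CPM in tissue (SD, n = 4), and was lower by less than 4-fold (log2 fold change -1.63 ± 0.22 SE, edgeR adjusted p = 2.63e-05).

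Neuronal genes were lower with few exceptions. Of 17 tested general neuron genes 16 were called lower and 0 higher, with a median log2 fold change of -7.41, and the member that was not called was the RNA-binding protein gene ELAVL4 (log2 fold change -0.40 ± 0.39 SE, edgeR adjusted p = 0.346). For glutamatergic neurons the count was 9 of 10 and for GABAergic neurons 9 of 9. MAP1B, a microtubule protein of axons, was at 4.67 to 53.4 CPM in microglia (median 10.3) and 3439.8, 3930.1, 3623 and 3676 CPM in tissue (log2 fold change -7.76 ± 0.63 SE, edgeR adjusted p = 3e-07). NEFL, the light neurofilament, was at 0.373 to 3.74 CPM in microglia and 709.5, 981, 1081 and 946 CPM in tissue (log2 fold change -9.03 ± 0.58 SE, edgeR adjusted p = 3.79e-08). UCHL1, a ubiquitin hydrolase abundant in neurons, had a median of 0.698 CPM in microglia and was at 497, 483, 436 and 512 CPM in tissue, the largest difference of the general neuron list (log2 fold change -9.42 ± 0.81 SE, edgeR adjusted p = 5.1e-07). MAP2, a dendritic microtubule protein, kept the highest microglial level of the list, at 41.1 to 136 CPM against 1578 to 2190.0 CPM in tissue. CAMK2A, a kinase of glutamatergic synapses, was at 1.89 to 26.2 CPM in microglia and 1151, 430.4, 947 and 1001 CPM in tissue, where pig 12829 was low. NPY, a peptide of interneurons, was listed at 0 in all 8 microglia samples and at 12.02, 17.8, 11.5 and 13.2 CPM in tissue, at least 128-fold higher, and with the pig as a block its adjusted p was 0.0258.

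Genes of the synapse were lower throughout. All 19 tested glutamate receptor genes, all 13 tested GABA and glycine receptor genes and all 25 tested genes of synaptic vesicles and release were called lower, with median log2 fold changes of -6.29, -6.63 and -6.57. Members under 10 CPM in any microglia sample could be tested only through the tissue, so these counts follow in part from the filter. GRIA2, the AMPA receptor subunit that limits calcium entry, was at 2.69, 3.495, 47.5, 0.0827, 1.34, 0.945, 1.54 and 2.58 CPM in the microglia samples, in the order of pigs given for MBP, and at 519, 313, 453 and 410.3 CPM in tissue (log2 fold change -5.82 ± 1.20 SE, edgeR adjusted p = 0.000744). The sample of pig 12781 was far above the other 7, and without it the log2 fold change was -7.89. GABRA2, a GABA-A receptor subunit, was at 0 to 10.1 CPM in microglia and 141 to 176 CPM in tissue (log2 fold change -6.63 ± 1.21 SE, edgeR adjusted p = 0.000303), and its log2 fold change without pig 12781 was -8.58. GABBR1, a subunit of the GABA-B receptor, differed least of the receptor genes named here, at 6.48 to 87.1 CPM in microglia (median 44.6) and 420.1, 305, 424 and 439 CPM in tissue (log2 fold change -3.26 ± 0.58 SE, edgeR adjusted p = 0.000245). SYT1, the calcium sensor of fast release, was at 0.115 to 16.9 CPM in microglia and 761, 807, 788 and 825 CPM in tissue (log2 fold change -7.70 ± 0.97 SE, edgeR adjusted p = 1.51e-05), and its log2 fold change without pig 12781 was -8.65. BSN, the active zone scaffold bassoon, was at 4.63 to 36.3 CPM against 623 to 849 CPM.

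Ion channel genes and genes of axon guidance were mostly lower, with exceptions among the channels. Of 32 tested voltage-gated or related channels, 27 were called lower and 3 higher. The 3 called higher were KCNK13 and KCNK6, potassium channels that leak at rest, and HVCN1, the proton channel of phagocytes. KCNK13 was at 19.1 to 31.8 CPM in microglia (median 25.8) and 1.03, 1.09, 1.03 and 0.611 CPM in tissue (log2 fold change 4.76 ± 0.23 SE, edgeR adjusted p = 2.26e-09). KCNK6 was at 34.2 to 47.3 against 1.67 to 2.18 CPM and HVCN1 at 102 to 174 against 8.89 to 9.75 CPM. SCN2A, a sodium channel of axons, was at 0 to 28.6 CPM in microglia and 397, 266, 415 and 352 CPM in tissue (log2 fold change -6.21 ± 1.12 SE, edgeR adjusted p = 0.000281), and without pig 12781 its log2 fold change was -7.92. Of 29 tested genes of axon guidance and cell adhesion, 26 were called lower and 0 higher. CNTN1, an axonal adhesion protein, was at 0.201 to 17.2 CPM in microglia and 789.6 to 984 CPM in tissue (log2 fold change -7.78 ± 0.94 SE, edgeR adjusted p = 1.03e-05), with -8.75 as its log2 fold change without pig 12781.

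The remaining level of neural genes in the microglia differed between pigs. The general neuron list summed to 242 CPM in pig 12781 and to 75.1 to 126.5 CPM in the other 7 pigs, against 6231 to 7760.3 CPM in tissue. MAP2 held much of this sum, at 136 CPM in pig 12781 and 41.1 to 91.7 CPM in the other 7. The median gene of the list was in microglia at 0.587% of its tissue level, against 1.74% for the sum. Glutamate receptors summed to 246 CPM in pig 12781, against 25.9 to 64.1 CPM in the other 7. Oligodendrocyte genes were highest in the same pig (597 CPM) and in pig 12758 (499 CPM). The summed astrocyte list was highest in pig 12821 (579 CPM) and next in pig 12817 (532 CPM). SLC1A3, described above, held much of this sum. GFAP, CLU and SPARCL1 were each highest in pig 12817, with GFAP at 48.6 CPM there and 17.8 CPM in pig 12821. MLC1 went the other way and was highest in pig 12821, at 0.803 CPM. GABAergic genes were highest in pig 12817 (19.6 CPM) and pig 12781 (17.01 CPM), with at most 4.49 CPM in the other 6. The part of neural cells or fragments in the microglia samples in these values was not tested. Without the sample of pig 12781, 23 of the 185 tested genes chosen by name moved by more than 1.5-fold and none of the 185 changed its call.

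**Figure D4:**
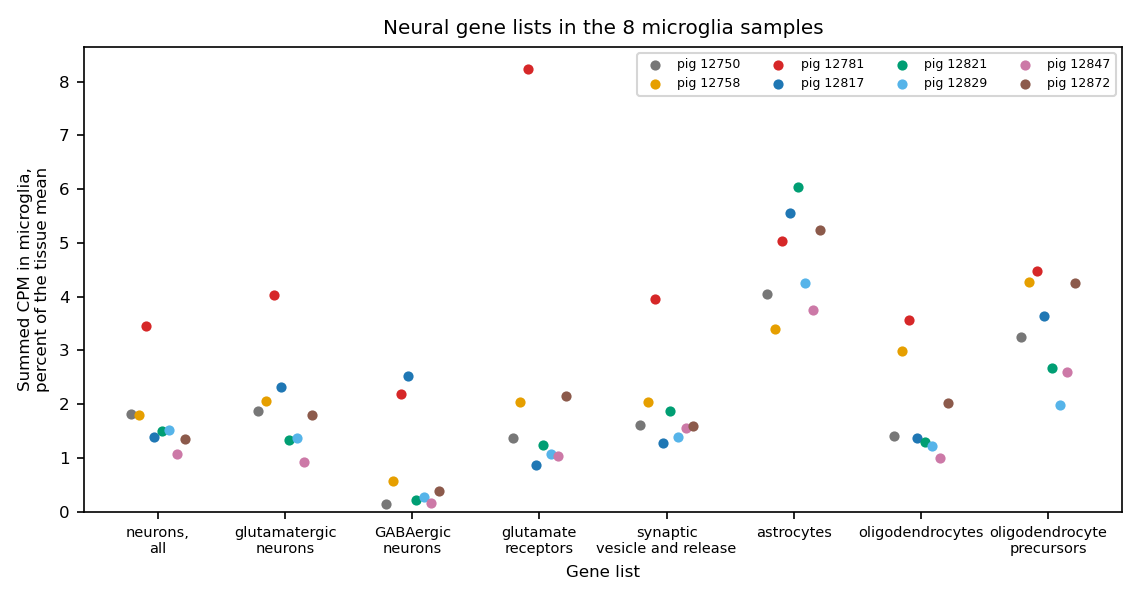
Summed CPM of 8 neural gene lists in each microglia sample (points, coloured by pig), as a percent of the mean of the 4 tissue samples; the vertical axis starts at 0. Pig 12781 stands apart for the general neuron, glutamatergic, glutamate receptor and synaptic vesicle lists, and its 8.24% for glutamate receptors is the highest point.

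Vascular genes were mostly lower, with 3 members called higher. Of 11 tested endothelial genes 6 were called lower and 2 higher, and of 7 tested genes of mural cells and fibroblasts 5 were called lower and 1 higher. Over all tested genes the shares were 22.9% lower and 12.2% higher. The summed lists did not differ as the counts did. Endothelial genes summed to 303 to 356 CPM in microglia and 275 to 321 CPM in tissue. Genes of mural cells and fibroblasts summed to 390 to 572 CPM in microglia and 422 to 644 CPM in tissue. The members called higher, TIE1, EGFL7 and COL1A2, held much of the sums in microglia. The defining endothelial genes CLDN5 and CDH5, of tight and adherens junctions, had means of 0.288 ± 0.244 CPM and 0 CPM in microglia and 24.05 ± 2.54 and 17.1 ± 2.71 CPM in tissue. FLT1, a VEGF receptor, was at 0 to 2.26 CPM in microglia and 68.2, 57.7, 58.7 and 71.4 CPM in tissue (log2 fold change -5.95 ± 0.65 SE, edgeR adjusted p = 4.45e-06). TIE1, which encodes a receptor tyrosine kinase known from endothelium (chromosome 6, 167919662 to 167947253), went the other way, at 119.8 to 192 CPM in microglia (median 169) and 16.8, 18.3, 14.2 and 20.5 CPM in tissue (log2 fold change 3.19 ± 0.16 SE, edgeR adjusted p = 3.43e-09). EGFL7, a secreted endothelial protein, was at 85.2 to 158 CPM in microglia and 17.2 to 29.5 CPM in tissue (log2 fold change 2.24 ± 0.20 SE, edgeR adjusted p = 6.18e-07). EGFL7 was not called in the test against the 4-fold threshold (edgeR adjusted p = 0.106). TIE1 and EGFL7 were above tissue in all 8 samples, while KDR was at 0 in the same samples. Whether the reads assigned to TIE1 and EGFL7 come from their transcripts was not tested.

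The collagen genes differed from each other in the same manner. COL1A2, the second chain of type I collagen (chromosome 9, 74174484 to 74210407), was at 379 to 552 CPM in microglia (median 516) and 125, 85.2, 63.5 and 91.7 CPM in tissue (log2 fold change 2.44 ± 0.18 SE, edgeR adjusted p = 8.75e-08). COL1A1, the first chain of the same collagen, was at 0 to 1.04 CPM in microglia and 153, 100.4, 80.8 and 109.8 CPM in tissue (log2 fold change -8.49 ± 0.84 SE, edgeR adjusted p = 1.84e-06). The pair thus lay on opposite sides, with every microglia sample above tissue for COL1A2 and below it for COL1A1, and COL3A1 was at 0 in all 8. Whether the reads assigned to the annotated COL1A2 gene come from its transcript was not tested. RGS5, a pericyte gene, was listed at 0 in the median microglia sample and at 3.61 CPM in that of pig 12817, without which its log2 fold change of -6.84 was -8.43. DESeq2 did not call RGS5 (adjusted p = 0.0427).

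All 13 protein-coding genes of the mitochondrial genome were called lower in microglia, with a median log2 fold change of -2.78. COX1, a subunit of cytochrome c oxidase, was at 949 to 1312 CPM in microglia (median 1144) and 7692, 6662, 8165 and 8676 CPM in tissue (log2 fold change -2.80 ± 0.10 SE, edgeR adjusted p = 1.35e-10). ND2, a subunit of complex I, had the largest difference, at 123 to 191 CPM against 1162 to 1429 CPM (log2 fold change -3.11 ± 0.11 SE, edgeR adjusted p = 1.75e-10), and CYTB, of complex III, the smallest, at 505 to 882 CPM against 2683 to 3123 CPM (log2 fold change -2.05 ± 0.13 SE, edgeR adjusted p = 2.29e-08). The groups were apart for all 3, although without the microglia sample of pig 12758 CYTB fell just short of a 4-fold difference, at a log2 fold change of -1.99, as it did with no scaling factors (-1.87). ATP6 was less even, at 129 to 786 CPM in microglia with the lowest value in pig 12817. It overlaps ATP8 and COX3 on the same strand, and reads cannot be told apart where these genes overlap. Summed over the 13 genes, the level was 4217 to 6086 CPM in microglia and 28489 to 34391 CPM in tissue.

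Nuclear genes of oxidative phosphorylation were nearer to equal. Of 31 tested, 1 was called lower and 0 higher, although 23 were lower by the adjusted p alone, where 39.4% of all tested genes were, and the median log2 fold change was -0.83. ATP5F1A, a subunit of ATP synthase, was at 105 to 159 CPM in microglia and 263 to 319 CPM in tissue (log2 fold change -1.28 ± 0.10 SE, edgeR adjusted p = 1.38e-07). NDUFA4, the member called lower, was at 8.91 to 13.4 CPM against 42.7 to 52.1 CPM, with a log2 fold change of -2.08 that was -1.91 without scaling factors. Genes of the cytosolic ribosome were closest to equal, with none of 27 called, 22 whose interval lay within a 2-fold change and a median log2 fold change of 0.27. RPS20 was at 208 to 461 CPM in microglia (median 341) and 299, 290.1, 254 and 254 CPM in tissue (log2 fold change 0.30 ± 0.19 SE, edgeR adjusted p = 0.159), with groups that overlapped. Of 18 tested heat shock genes, 2 were called lower and 0 higher, where 22.9% and 12.2% of all tested genes were. HSP90AA1, an inducible chaperone, was at 1996 to 2731 CPM in microglia and 2514 to 3696 CPM in tissue (log2 fold change -0.41 ± 0.11 SE, edgeR adjusted p = 0.00473). CRYAB, a small heat shock protein known from astrocytes and oligodendrocytes, was at 1.53 to 3.07 CPM against 84.1 to 172 CPM (log2 fold change -5.70 ± 0.23 SE, edgeR adjusted p = 3.9e-10).

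Of 24 tested genes of cholesterol synthesis and efflux, 3 were called higher and 5 lower, shares near the 12.2% and 22.9% of all tested genes. Those called lower included the synthesis genes HMGCS1 and DHCR7 and the neuronal hydroxylase gene CYP46A1, with log2 fold changes of -3.86, -2.17 and -4.39. HMGCS1 was at 20.5 to 47.98 CPM in microglia (median 36.7) and 445, 587, 543 and 580.2 CPM in tissue (log2 fold change -3.86 ± 0.18 SE, edgeR adjusted p = 1.59e-09). ABCA1, which exports cholesterol, was at 376 to 580.0 CPM in microglia and 81.3, 81.03, 107 and 101 CPM in tissue (log2 fold change 2.41 ± 0.14 SE, edgeR adjusted p = 1.51e-08). LPCAT2, which makes phosphatidylcholine and platelet-activating factor, was at 266 to 315 CPM against 7.42 to 9.41 CPM (log2 fold change 4.99 ± 0.10 SE, edgeR adjusted p = 3.71e-12). SOAT1, which esterifies cholesterol, was called higher at 2.17, and with the pig as a block its log2 fold change was 1.96, under 4-fold. APOE, the main lipid carrier of the brain, was at 2257 to 4289 CPM in microglia (median 3359.7) and 1068, 1134, 919.8 and 1317 CPM in tissue, above tissue in every sample but by less than 4-fold (log2 fold change 1.59 ± 0.19 SE, edgeR adjusted p = 7.88e-06).

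Of 21 tested genes of glycolysis and sugar transport, 4 were called higher and 4 lower, where 12.2% and 22.9% of all tested genes were, so the counts alone set this list little apart. SLC2A5, the fructose transporter GLUT5, was at 298 to 426 CPM in microglia (median 373) and 9.38, 9.02, 5.53 and 7.36 CPM in tissue (log2 fold change 5.54 ± 0.20 SE, edgeR adjusted p = 1.88e-10). The hexokinase gene HK2 (4.30) and the monocarboxylate transporter genes SLC16A3 (2.78) and SLC16A7 (2.33) were also called higher by these log2 fold changes. ENO2, the enolase of neurons, was at 1.01 to 2.88 CPM in microglia and 290.1 to 373 CPM in tissue (log2 fold change -7.40 ± 0.28 SE, edgeR adjusted p = 2.6e-10), and the phosphofructokinase genes PFKP (-6.23) and PFKM (-5.91) and the aldolase gene ALDOC (-3.39), which astrocytes use, were the others called lower. The shared enzymes GAPDH (log2 fold change -1.79 ± 0.11 SE, edgeR adjusted p = 2.01e-08) and PKM (log2 fold change -1.88 ± 0.07 SE, edgeR adjusted p = 2.48e-10) were below tissue by less than 4-fold, and under RLE factors and in DESeq2 PKM passed that fold, at a log2 fold change of -2.04 under RLE factors.

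Lysosomal genes, which phagocytes use in quantity, were called higher for 8 of 27 tested and lower for 1, where 12.2% and 22.9% of all tested genes were. CTSD, the protease cathepsin D, was at 833 to 1443 CPM in microglia (median 1265) and 118, 139.7, 108 and 128 CPM in tissue (log2 fold change 3.30 ± 0.17 SE, edgeR adjusted p = 3.33e-09). PSAP, the precursor of saposins, and LAMP2, a lysosomal membrane protein, were above tissue by less than 4-fold, with log2 fold changes of 0.84 and 1.07. The gene called lower was CTSB, the protease cathepsin B, at 7.13, 2.996, 14.6, 8.79, 8.95, 6.56, 6.56 and 5.85 CPM in the microglia samples, in the order of pigs given for MBP, and at 73.7, 67.96, 64.7 and 70.1 CPM in tissue (log2 fold change -3.17 ± 0.29 SE, edgeR adjusted p = 7.43e-07). All 8 microglia samples were thus below all 4 tissue samples for CTSB, where CTSD showed the reverse. Only reads assigned to the annotated CTSB gene enter this value, and whether reads of the locus were assigned elsewhere was not tested.

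Of 14 tested immediate-early genes, which respond within minutes to activity or handling, 4 were called higher and 3 lower, where 12.2% and 22.9% of all tested genes were. IER3 was at 20.4 to 39.7 CPM in microglia (median 25.3) and 0.488, 0.793, 0.888 and 0.278 CPM in tissue (log2 fold change 5.48 ± 0.36 SE, edgeR adjusted p = 3.48e-08), and ZFP36, which destabilises cytokine transcripts, at 60.3 to 116 CPM against 15.1 to 18.3 CPM (log2 fold change 2.58 ± 0.17 SE, edgeR adjusted p = 2.9e-08). ARC, a synaptic gene induced by neuronal activity, was at 0.576 to 1.63 CPM in microglia and 57.1, 15.1, 29.1 and 29.02 CPM in tissue (log2 fold change -5.17 ± 0.41 SE, edgeR adjusted p = 1.86e-07), with the tissue samples themselves uneven. FOSL2 (-3.69) and NR4A3 (-6.65) were the other genes called lower, and without pig 12781 the value for NR4A3 was -7.97. The most abundant member, JUN, was at 97.6 to 228 CPM in microglia and 98.9, 175, 89.2 and 93.3 CPM in tissue, and its groups overlapped (log2 fold change 0.60 ± 0.27 SE, edgeR adjusted p = 0.0598). KLF6 lay at the fold threshold, at a log2 fold change of 1.99 with all samples, and was called higher when any of 6 samples was left out, at 2.00 to 2.07.

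Among the genes called higher, 3 with a symbol varied most between the microglia samples. NLRC5, an activator of MHC class I genes, was at 97.3, 136, 10.6, 30.9, 9.54, 172, 135 and 114 CPM in pigs 12750, 12758, 12781, 12817, 12821, 12829, 12847 and 12872 and at 2.87, 7.22, 6.04 and 3.81 CPM in tissue (log2 fold change 4.14 ± 0.90 SE, edgeR adjusted p = 0.00107). Pigs 12781 and 12821 lay near the tissue level for this gene, pig 12817 lay between, and the other 5 were far above. ZNF76, a zinc finger factor that overlaps DEF6 on the same strand, was at 72.3, 18.2, 63.998, 81.1, 64.998, 13.4, 71.8 and 69.2 CPM in the same order of pigs, with low values in pigs 12758 and 12829. CNN2, the actin-binding protein calponin 2, was at 59.8, 12.8, 65.8, 58.9, 65.1, 81.6, 55.8 and 14.9 CPM, with low values in pigs 12758 and 12872. The low samples were thus not the same pigs for the 3 genes. limma-voom did not call them, with adjusted p = 0.181 for NLRC5, 0.0234 for ZNF76 and 0.0621 for CNN2. Of the genes called lower, ERC2, UNC80 and DYNC1I1, all known from neurons, varied most, and without their highest microglia sample (pig 12781, 12781 and 12821) their log2 fold changes went from -5.35, -5.15 and -5.06 to -6.95, -6.82 and -5.96. DESeq2 did not call ERC2 (adjusted p = 0.0109), and with only the 4 pigs that gave both samples DYNC1I1 was not called (adjusted p = 0.011 in edgeR).

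**Figure D5:**
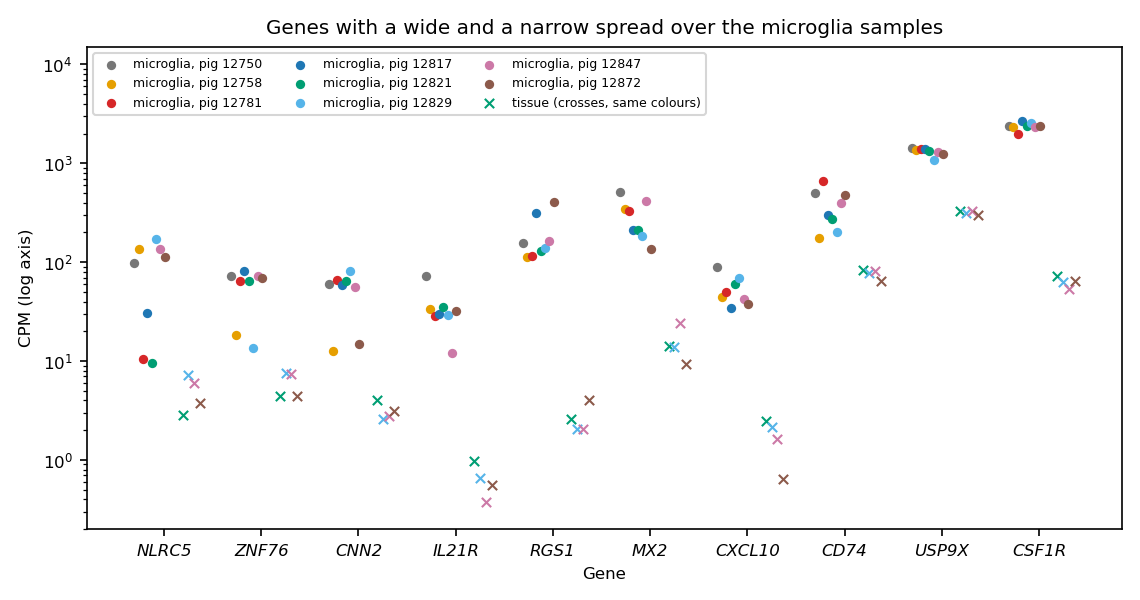
CPM on a log axis of 10 genes called higher in microglia, with microglia as filled points and tissue as crosses, coloured by pig. NLRC5, ZNF76 and CNN2 fall into a high and a low set of pigs that differs from gene to gene, whereas USP9X and CSF1R are tight.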

How the data were processed

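The authors deposited read counts per gene for all samples: per the labels and methods, RNA was sequenced with a stranded total RNA kit, and reads were aligned to Sscrofa11.1 with HISAT2 and counted with StringTie, versions not given in the sources used here. Whether the counting used strand is not given either, so overlapping genes (59 of the 190 genes chosen by name overlap another RefSeq gene) are uncertain. Every count column was mapped to a sample by its label, and groups and pigs were taken from the labels. Genes under the level of 10 CPM in some sample of each group were left out, library sizes were scaled by TMM over the 12 samples, and the groups were compared with the robust quasi-likelihood test of edgeR 4.0.16 (R 4.3.3), two-sided, with Benjamini-Hochberg adjustment over 10526 genes. The call needed an adjusted p under 0.01 and a fold over 4. SE values are the fitted log2 fold change over the root of F. Values in CPM are TMM-scaled, and 3 counts were used as the floor.

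The pig is the block: 4 pigs gave both samples, as their tag numbers show, and deviations of same-pig samples from their group means correlated at 0.0273 to 0.0878. The main fit has no block. Alternatives were limma-voom (limma 3.58.1), DESeq2 1.42.0, other scaling factors, filters and thresholds, the pig as a block, only those 4 pigs, all 31 samples, and each sample left out. On simulated data for this comparison with 10526 genes, of which 200 changed 8-fold, edgeR called 87 of 100 genes raised and 87 of 100 lowered, with 0 unchanged genes called. With the pig as a block it called 73 and 72, and DESeq2 called 11 unchanged genes. The simulation had few changes, balanced in direction, and the same dispersion in both groups. It therefore cannot show how the calls behave under the many and uneven differences of the measured data.

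Genes were named by rule: with a symbol and called, the 10 largest fold changes without overlap, the 10 most abundant and the 3 most variable between microglia samples in each direction, then from each list the 3 most abundant members, the largest fold change in each direction and members called against their list, plus ITGAM and PTPRC. TREM2, STAB1, CD163, MRC1, CD3E, ELAVL4, SLC1A3, CLDN5, CDH5, DHCR7, HK2, SLC16A3, SLC16A7, PFKP, PFKM and ALDOC are named beside them after their values were seen. The comparison and the gene lists were chosen with earlier results of these data known. Symbols matched 8969 of 10526 tested genes, and list genes without a matched symbol were not analysed here, and results of some genes are not reported here. Positions, exon lengths and promoters came from RefSeq annotation release 106 of Sscrofa11.1, which matched 8353 of the 8969 symbols.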

Additional observations from a re-analysis of the deposited data

Results flagged for a closer look

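Dixon's test for a highest or lowest sample far from the others was run on 234 sets of values. These were named genes and summed gene lists within the 8 microglia or the 4 tissue samples, and 27 were flagged. The test flags about 1 of 20 sets by chance only where values are normally distributed and sets were not chosen for their spread. The values here are CPM, some of them near the floor, and some genes were named for their spread between microglia samples. The number that chance alone would flag here is therefore not known. Many of the sets share genes and samples, and no cause was tested.

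In the microglia, 14 of the 27 had their highest value in pig 12781. The neural ones were MAP1B at 53.4 CPM (other 7 samples 4.67 to 26.9), UNC80 at 45.1 (0 to 9.26), ERC2 at 21.9 (0 to 3.42) and ADORA1 at 4.61 (0 to 2.00). The summed lists were general neuron genes at 242 CPM (75.1 to 126.5), glutamatergic neurons at 88.2 (20.1 to 50.8), glutamate receptors at 246 (25.9 to 64.1), synaptic vesicle genes at 317 (103 to 164), ion channels at 545 (277 to 376) and erythroid genes at 12.9 (3.88 to 7.69). Others highest in this pig were the chemokine gene CCL8 at 88.6 CPM (46.2 to 65.0), TLR5 at 2.75 (0 to 0.348), PDGFA at 2.59 (0 to 1.01) and NR4A3 at 1.53 (0 to 0.463).

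Pig 12817 had the highest microglia values of CLU, 38.1 CPM (1.98 to 14.7), and C4A, 5.59 CPM (0 to 2.23). LPCAT2 was highest in the microglia of pig 12847, at 315 CPM (266 to 283), as was the summed list of ependymal and choroid plexus genes, at 12.1 CPM (0 to 2.44). Pig 12758 had the highest TGFBR3, 1.27 CPM (0 to 0.579), and the lowest summed lysosome genes, 3466 CPM (4327 to 4659). IL21R was highest in pig 12750, at 72.5 CPM (12.2 to 34.9).

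In the tissue, pig 12829 had the highest myelin values, with MBP at 7204 CPM (other 3 samples 3393 to 3858) and summed oligodendrocyte genes at 25919 (12972 to 14734), and the lowest C1QA, at 10.4 CPM (11.6 to 11.7). KCNK13 was lowest in pig 12872, at 0.611 CPM (1.03 to 1.09). LPCAT2 was lowest in pig 12847, at 7.42 CPM (9.14 to 9.41), where summed purinergic genes were highest, at 264 CPM (243 to 245).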

How the results depend on the processing

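The numbers of genes called higher and lower, 1281 and 2409, were within 1.5 times under limma-voom, DESeq2, other scaling, thresholds and sample sets, and moved beyond it only where more genes were tested: 2015 higher and 4862 lower with the filter of edgeR (20632 genes), and 2014 and 6456 with no filter (29747 genes). RLE factors shifted the median of all genes by -0.17 on the log2 scale, no scaling by 0.18 and upper-quartile factors by 0.10. Leaving out 1 sample at a time gave 1267 to 1296 genes higher, 2334 to 2487 lower and 3011 to 3286 within 2-fold. With the pig as a replicate block in edgeR, 1241 genes were higher and 2274 lower, of which 1224 and 2175 were shared with the main result, and among named genes the block changed the calls of CXCL12, NEUROD1, NPY, SOAT1, USP9X, YES1 and KLF6 and no others. Of 185 named genes tested, 31 changed their call under at least 1 of 25 alternatives, 27 losing and 4 gaining it, and 0 reversed. In the test against the 4-fold threshold itself (glmTreat in edgeR), 19 of them lost it: ATP6, C4A, CD74, CXCL12, CYTB, DYNC1I1, EGFL7, ERC2, GABBR1, MEF2C, NDUFA4, NFIX, NLRC5, PDGFA, SOAT1, TGFB2, TLR5, UNC80 and USP9X, with adjusted p from 0.0131 to 0.432. Low levels limit the genes called lower, for which 3 counts equal 0.0822 to 0.130 CPM in the microglia.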

Other observations

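Cell cycle genes were mostly too low to test. Of 6 tested, 1 was called higher, where 12.2% of all tested genes were. It was MCM3, a subunit of the replicative helicase, at 37.3 ± 3.85 CPM in microglia (SD, n = 8) and 6.18 ± 0.913 CPM in tissue (SD, n = 4) (log2 fold change 2.59 ± 0.13 SE, edgeR adjusted p = 3.85e-09). The 18 list members with a symbol summed to 203 to 343 CPM in microglia and 142 to 190.4 CPM in tissue. Of erythroid genes 1 passed the filter, the beta globin gene HBB, at 6.61 ± 2.68 CPM in microglia and 21.3 ± 9.46 CPM in tissue, which was not called (log2 fold change -1.69 ± 0.33 SE, edgeR adjusted p = 0.000436). No ependymal or choroid plexus gene passed the filter. Their sum reached 78.2 CPM in tissue, with a lowest value of 15.8 CPM. CD79A, a subunit of the B cell receptor, was above tissue by less than 4-fold, at 58.3 ± 15.1 CPM in microglia and 19.8 ± 5.16 CPM in tissue (log2 fold change 1.56 ± 0.25 SE, edgeR adjusted p = 9.81e-05).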
